A study of Mus musculus with 6 samples.

Results

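Clec4a1, Clec4a2, Clec4a3, Clec4n, Clec7a, Clec12a and Igsf6, 7 of the 54532 genes in the deposited table, encode surface receptors of myeloid cells: 6 C-type lectins and the immunoglobulin superfamily member Igsf6. They were described in mouse liver RNA from 6 libraries. Genes were found by symbol, and the set was chosen by the FPKM values of Clec4a3 and Igsf6, which separated the groups in this comparison. Levels in HKO against Flox are therefore given for all 7 as a description, with no test. The HKO group (3 libraries) came from mice with a hepatocyte-specific knockout of G3bp1, which encodes a protein that binds RNA and assembles stress granules. The Flox group (3 libraries) came from litter controls of genotype G3bp1-Flox. Mice of both groups were 6 weeks old when they were put on a high-fat diet, which lasted 12 weeks. The sources used here name neither the recombinase nor its promoter. Whether the libraries of a group are separate animals is not stated in the labels, and p-values then reflect only how these libraries vary, which may be technical.

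C-type lectin receptors sit on macrophages, monocytes, dendritic cells and neutrophils, where they bind sugars on microbes or ligands exposed by damaged cells. Activating members such as Dectin-1 (Clec7a) and Dectin-2 (Clec4n) signal through the kinase SYK and the adaptor CARD9 to NF-kB. Inhibitory members such as DCIR (Clec4a2) and MICL (Clec12a) carry a tyrosine motif that recruits the phosphatases SHP-1 and SHP-2. In liver these receptors are found on Kupffer cells, the resident macrophages, and on recruited monocytes and dendritic cells. In bulk tissue a lower or higher number of such cells and less or more RNA per cell cannot be told apart.

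The lectins lie in a pair of gene clusters on chromosome 6, and Igsf6 lies on chromosome 7. The stretches upstream of 4 members are shown, those of Clec4a3 and Igsf6 because these genes led to the set, and those of Clec4a1 and Clec7a because they hold the core of the binding motif of PU.1, a transcription factor needed for myeloid cells. The sequences are from RefSeq (GRCm38.p6), 5′ to 3′ on the strand of the gene, and end before the first annotated exon base. Their positions are chr6:122921598-122921847 (plus strand) for Clec4a1, chr6:122952265-122952514 (plus strand) for Clec4a3, chr6:129472786-129473035 (minus strand) for Clec7a and chr7:121074573-121074780 (minus strand) for Igsf6. Capitals mark GAGGAA or its reverse complement TTCCTC.
Clec4a1: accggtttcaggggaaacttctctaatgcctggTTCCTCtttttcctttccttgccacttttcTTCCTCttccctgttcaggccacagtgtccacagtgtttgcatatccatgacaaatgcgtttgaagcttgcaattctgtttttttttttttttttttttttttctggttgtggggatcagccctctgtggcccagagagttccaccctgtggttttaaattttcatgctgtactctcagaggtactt
Clec4a3: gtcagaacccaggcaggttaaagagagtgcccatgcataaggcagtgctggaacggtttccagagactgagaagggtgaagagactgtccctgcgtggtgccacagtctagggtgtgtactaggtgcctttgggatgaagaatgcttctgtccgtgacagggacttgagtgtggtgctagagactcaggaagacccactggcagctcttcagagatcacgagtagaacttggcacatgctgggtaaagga
Clec7a: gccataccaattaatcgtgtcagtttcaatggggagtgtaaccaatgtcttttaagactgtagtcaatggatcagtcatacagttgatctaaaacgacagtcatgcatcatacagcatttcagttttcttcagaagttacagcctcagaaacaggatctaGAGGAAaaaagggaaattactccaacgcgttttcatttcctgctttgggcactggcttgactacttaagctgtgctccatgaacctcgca
Igsf6: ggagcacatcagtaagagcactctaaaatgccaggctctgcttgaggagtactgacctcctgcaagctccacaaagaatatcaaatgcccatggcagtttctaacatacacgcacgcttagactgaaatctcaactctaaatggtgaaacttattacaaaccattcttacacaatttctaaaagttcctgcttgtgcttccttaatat

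The PU.1 core was present in 2 of the 3 member windows of 250 bases, those of Clec4a1 and Clec7a, and in 23.3% of the 32851 windows of that length in the RefSeq table. It was absent from the 208 bases of Igsf6, where 19.4% of windows hold it, and from the 182 bases of Clec4a2 that lie outside exons, where 17.4% do. These matches describe letters only. RefSeq entries were matched for 6 of the 7 members, all but Clec4n, and the window of Clec12a lies within annotated exons.

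Between 16499832 and 17954066 reads per HKO library and between 15804115 and 16331199 per Flox library were assigned to genes. G3bp1 stood at 4.46 ± 0.194 FPKM (reads scaled to gene length and library size) in HKO and 8.67 ± 0.37 in Flox (SD, n = 3 each), lower in all 3 HKO libraries as labelled (log2 difference -0.83, adjusted p = 0.11 in limma). In 3 or more libraries 11856 genes reached 0.5 FPKM, and of these limma on log2(FPKM + 1) called 0 higher and 1 lower in HKO at an adjusted p under 0.05, which is 0.00843% of them. At an unadjusted p under 0.05 there were 365 higher and 539 lower, 7.62% of all genes tested, and limma's voom on recovered reads called 0 higher and 3 lower. Of the 7 members 6 passed the filter, and Clec4a2 lay below it.

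All 7 members had a higher mean FPKM in HKO livers than in Flox livers, by 1.47 to 2.07 times, and also a higher mean of log2(FPKM + 1), as 48.8% of all genes tested had. The median difference over the 7 was 0.54 in log2(FPKM + 1), a scale on which differences of low genes come out too small, and the median over all genes tested was -0.01. In 5 members every HKO library lay above every Flox library, and in Clec4n and Clec12a the groups overlapped. Such separation upward was seen in 6.06% of all genes tested, of which 4 of the 6 members that passed the filter form part, with 7.21% separated downward, and in 3.39% of genes below the filter with at least 1 read. Because this contrast chose the set, the count is a description only. The members stood at low levels: the highest, Clec7a, averaged 2.16 FPKM over the 6 libraries, and the median gene tested averaged 3.91 FPKM.

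**Figure D1:**
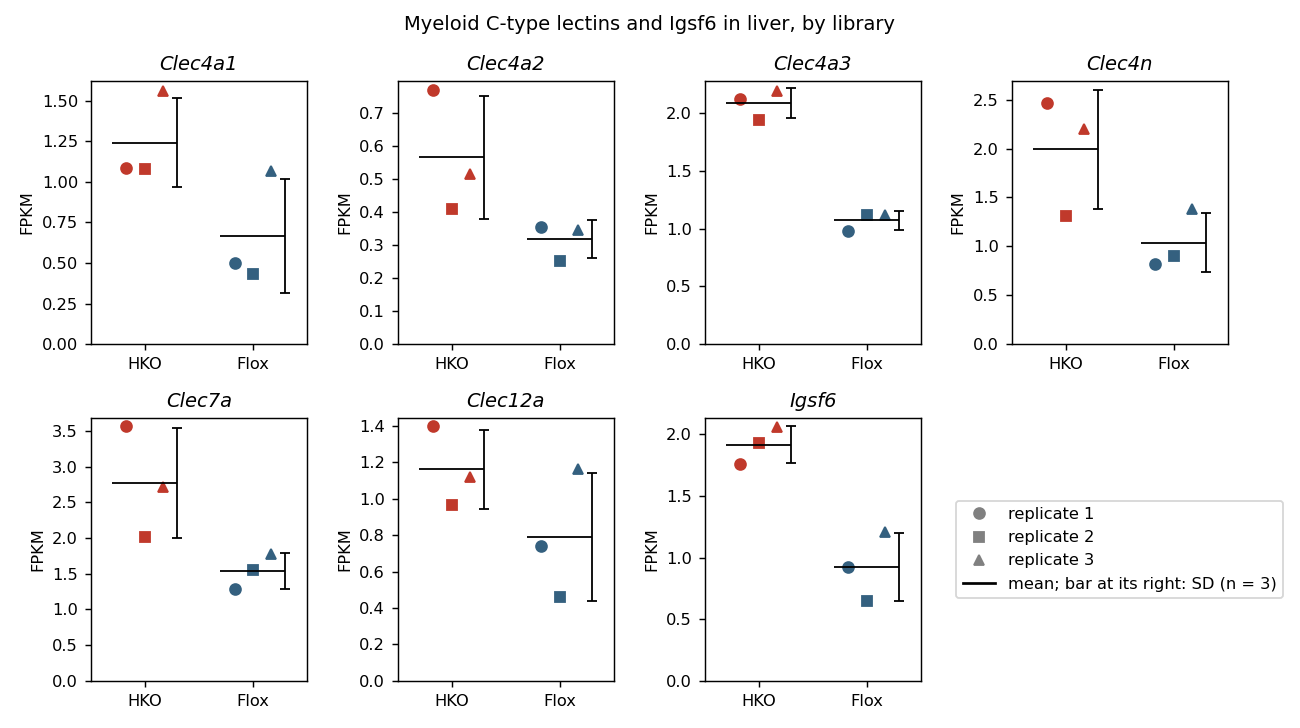
FPKM of the 7 genes in each library (marker shape gives the replicate number), with HKO on the left, Flox on the right, the mean as a line and the SD as a bar (n = 3). Every HKO library lies above every Flox library in 5 panels, and the groups overlap in the panels of Clec4n and Clec12a.

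The members of the DCIR branch, which lie in the same cluster on chromosome 6, are Clec4a3, Clec4a1 and Clec4a2. Clec4a3 (DCIR3, ENSMUSG00000043832, chromosome 6, 122952515 to 122969875, plus strand, GRCm38) stood at 2.12, 1.94 and 2.19 FPKM in HKO 1, HKO 2 and HKO 3, against 0.981, 1.12 and 1.12 FPKM in Flox 1, Flox 2 and Flox 3. The lowest HKO library lay 0.821 FPKM above the highest Flox library, and the gene was chosen for this separation. These values rest on 50, 43 and 54 reads in the HKO libraries, against 20, 22 and 25 in the Flox libraries. Its mean was 1.95 times as high in HKO.

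Clec4a1 (DCIR4, ENSMUSG00000049037, 122921848 to 122934619, plus strand), a close relative of Clec4a3, stood at 1.09, 1.08 and 1.56 FPKM in the HKO libraries, against 0.501, 0.432 and 1.07 FPKM in Flox 1, Flox 2 and Flox 3. Flox 3 nearly reached the lower HKO libraries, with a gap of 0.008 FPKM. The separation of Clec4a1 thus rests on a margin smaller than 1 read. Clec4a2 (DCIR, ENSMUSG00000030148, 123106428 to 123143999, plus strand) encodes the inhibitory receptor of the branch and was the lowest member. It stood at 0.771, 0.41 and 0.516 FPKM in the HKO libraries, against 0.356, 0.253 and 0.346 FPKM in the Flox libraries, from 40, 20 and 28 against 16, 11 and 17 reads. HKO 2 was close to the Flox range, and HKO 1 stood above all others.

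The activating receptors were Clec4n and Clec7a. Clec4n (Dectin-2, ENSMUSG00000023349, chromosome 6, 123229843 to 123247021, plus strand) encodes a receptor for fungal mannans that pairs with the Fc receptor gamma chain. It stood at 2.46, 1.31 and 2.20 FPKM in HKO 1, HKO 2 and HKO 3, against 0.825, 0.901 and 1.38 FPKM in Flox 1, Flox 2 and Flox 3. HKO 1 and HKO 3 were high, while HKO 2 lay just below Flox 3, so the groups overlapped. Clec7a (Dectin-1, ENSMUSG00000079293, 129461591 to 129472779, minus strand) encodes the receptor for beta-glucans and had the highest level of the 7. It stood at 3.57, 2.02 and 2.72 FPKM in the HKO libraries (167, 89 and 133 reads), against 1.28, 1.56 and 1.78 FPKM in the Flox libraries (52, 61 and 79 reads). HKO 2 was again the lowest HKO library, 0.239 FPKM above Flox 3. The deposited table lists Clec7a as a polymorphic pseudogene, and the RefSeq table as protein-coding.

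Clec12a (MICL, ENSMUSG00000053063, chromosome 6, 129342691 to 129365303, plus strand), an inhibitory receptor that binds uric acid crystals, had the smallest ratio of the set. It stood at 1.40, 0.965 and 1.12 FPKM in the HKO libraries, against 0.742, 0.463 and 1.16 FPKM in the Flox libraries. Flox 3 lay above HKO 2 and HKO 3, so the groups overlapped. The mean was 1.47 times as high in HKO, and the difference of 0.29 on the log2 scale was 0.15 without Flox 2 and 0.43 without Flox 3.

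Igsf6 (ENSMUSG00000035004, chromosome 7, 121064067 to 121074572, minus strand) encodes a membrane protein with an immunoglobulin domain that is found on monocytes and dendritic cells. It stood at 1.76, 1.93 and 2.06 FPKM in HKO 1, HKO 2 and HKO 3, against 0.927, 0.65 and 1.20 FPKM in Flox 1, Flox 2 and Flox 3. All HKO libraries were above all Flox libraries, and HKO 1, the highest library for 4 of the lectins, was here the lowest of its group. The mean was 2.07 times as high in HKO, the largest ratio of the 7, from 221 against 96 reads in all. Igsf6 lies inside the span of Mettl9 on the other strand, and the library kit does not mark strand. Exons of the 2 genes share 0 bases, and Mettl9 stood at 10.4 ± 0.654 FPKM in HKO and 11.7 ± 2.51 in Flox.

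Levels per length put Clec7a first in both groups, followed by Clec4a3, Clec4n and Igsf6. In HKO livers these 4 lay at 2.77 ± 0.775, 2.09 ± 0.131, 1.99 ± 0.605 and 1.92 ± 0.148 FPKM, and each overlapped its neighbour in the order. Clec4a1 (1.24 ± 0.275) and Clec12a (1.16 ± 0.219) followed below Igsf6 without overlap, and Clec4a2 (0.566 ± 0.186) was last. In Flox livers the same 4 lay at 1.54 ± 0.25, 1.07 ± 0.0797, 1.04 ± 0.303 and 0.927 ± 0.277 FPKM, followed by Clec12a (0.789 ± 0.352), Clec4a1 (0.668 ± 0.35) and Clec4a2 (0.318 ± 0.0566). In Flox Clec7a did not overlap the next gene and Clec4a2 lay below every value of the other members, while the genes between them overlapped their neighbours.

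Replicate spread of each member was set beside its counting error. The chi-square of reads around the group mean, divided by its degrees of freedom, averages 1 where counting alone sets the spread. With 3 libraries per group single values scatter widely around 1, so only large departures tell members apart. Clec4a3 had 0.188 in HKO and 0.122 in Flox, so its libraries lay closer together than counting of 20 to 54 reads would make them on average. The small SD of Clec4a3 is thus below its counting error. Igsf6 had 0.451 in HKO and 2.80 in Flox. Clec7a had 9.82 in HKO and 1.71 in Flox, and Clec12a had 3.94 in HKO and 13.6 in Flox. The largest values of the set were thus those of Clec12a in Flox and Clec7a in HKO. Clec4n, Clec4a1 and Clec4a2 had 4.43, 1.71 and 3.09 in HKO and 2.01, 4.51 and 0.444 in Flox.

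Most members shared the lowest HKO and the highest Flox library, while the other places varied. HKO 2 was the lowest HKO library for 6 of the 7, all but Igsf6, and it was so for 29.5% of all genes tested. Flox 3 was the highest Flox library for 6 of the 7, all but Clec4a2, and it was so for 37.5% of all genes tested. Summed over the members, HKO 1, HKO 2 and HKO 3 held 13.2, 9.65 and 12.4 FPKM, against 5.61, 5.37 and 8.07 FPKM in Flox 1, Flox 2 and Flox 3. Without Flox 3 all 7 members lay above the remaining Flox libraries, where 17.9% of all genes tested did, and without HKO 2 it was 6 of 7, with 8.83% of all genes. With any other library left out it stayed at 5 of 7, with 14.8% of all genes without HKO 1, 10.6% without HKO 3, 8.55% without Flox 1 and 8.93% without Flox 2. The median difference of the 6 members tested was 0.46 without HKO 1 and 0.61 without Flox 3.

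**Figure D2:**
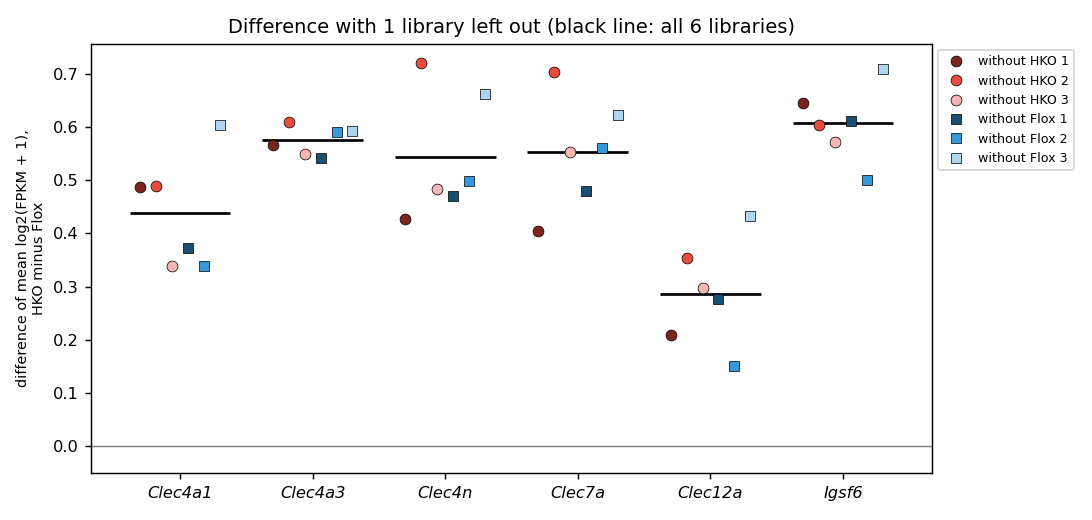
Difference of mean log2(FPKM + 1), HKO minus Flox, of the 6 members that passed the filter, with all 6 libraries (black line) and with each library left out (circles for HKO, squares for Flox). All points lie above 0, the lowest being Clec12a without Flox 2 (0.15), and Clec4a3 keeps within 0.54 to 0.61.

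Tested genes beside the members that are no lectins had similar means in both groups, except for C3ar1. Within 100 kb of the first cluster (Clec4a1 to Clec4n) lie 19 genes, of which the 3 tested that are not members are Foxj2, C3ar1 and Necap1. C3ar1, the receptor for the complement fragment C3a and itself a myeloid gene, stood at 0.67 FPKM in HKO and 0.452 in Flox, with overlapping groups. Its mean was 1.48 times as high in HKO, near the 1.47 times of the member Clec12a. Necap1, a gene of vesicle transport, stood at 11.3 and 11.6 FPKM. None passed (adjusted p = 0.732 to 0.961 in limma). Beside the second cluster Gabarapl1, a gene of autophagy, stood at 154 FPKM in HKO and 159 in Flox (adjusted p = 0.927). Close relatives in the first cluster were almost silent: Clec4a4 had 1 read in HKO and 0 in Flox, Clec4b1 had 6 and 6, and Clec4b2 had 0 in both, where a count of 0 allows up to 3 reads per library. Clec4d (MCL) had 1 read in HKO and 9 in Flox. Clec4e (Mincle), a receptor for mycobacterial cord factor, had 6, 5 and 3 reads in the HKO libraries and 0, 2 and 0 in the Flox libraries. No member had a transcript copy at 97% identity over 80% of its length, and the longest match of Clec4a3 was to Clec4a2, at 80.8% identity over 637 bases.

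Of 15 other myeloid and endothelial C-type lectins 8 were tested, 6 with a higher and 2 with a lower mean of log2(FPKM + 1) in HKO, the scale of all such list counts, and the median difference was 0.13. In limma 0 of the 8 passed over all genes, with 2 at an unadjusted p under 0.05 (7.62% of all genes tested). Mrc1, the mannose receptor of macrophages and sinusoidal endothelium, stood at 5.31 ± 1.13 FPKM in HKO and 3.68 ± 0.703 in Flox, without overlap. Cd207, which encodes langerin, lay in the opposite direction, at 0.722 ± 0.357 FPKM in HKO and 1.55 ± 0.384 in Flox, also without overlap. Of all genes tested 6.06% were separated upward and 7.21% downward. Clec4f, a Kupffer cell lectin, stood at 43.9 ± 5.996 FPKM in HKO and 34.6 ± 13.8 in Flox, and Clec14a, an endothelial lectin, at 2.14 ± 0.287 and 1.81 ± 0.491. In the Dectin-1 cluster and its relatives 2 of 9 other genes were tested and 0 passed, also at an unadjusted p under 0.05. Clec1b (CLEC-2), the podoplanin receptor, stood at 1.87 ± 0.48 FPKM in HKO and 1.33 ± 0.238 in Flox, and Clec2d, a ligand of an inhibitory natural killer cell receptor, at 54.4 ± 29.1 and 84.2 ± 15.2. Clec2d was high in HKO 1 (87.99 FPKM) and low in HKO 2 and HKO 3 (35.5 and 39.8 FPKM).

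Of 21 genes of the signalling chain below these receptors 17 were tested, 13 with a higher and 4 with a lower mean in HKO, and the median difference was 0.15. In limma 0 passed over all genes, 3 had an unadjusted p under 0.05 (7.62% of all genes tested), and HKO libraries lay all above Flox libraries in 4 (6.06% of all genes tested). The kinase gene Syk stood at 0.657 ± 0.126 FPKM in HKO and 0.376 ± 0.073 in Flox. The exchange factor gene Vav1 stood at 1.15 ± 0.332 FPKM in HKO and 0.606 ± 0.227 in Flox, and the inositol phosphatase gene Inpp5d (SHIP1) at 0.68 ± 0.0919 and 0.349 ± 0.159 (adjusted p = 0.648 for all 3 in limma). The Src family kinase gene Fgr stood at 0.853 ± 0.324 and 0.501 ± 0.0396 FPKM. Fcer1g, the signalling partner of Dectin-2, stood at 12.7 ± 5.39 FPKM in HKO and 11.1 ± 2.77 in Flox, and Card9 lay below the filter with 29 reads in HKO and 19 in Flox. The median of the chain was 0.29 without Flox 3 and 0.10 without Flox 2.

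Genes that this pathway is known to induce were mostly too low to compare: 15 of 17 lay below the filter, with Csf2 and Ifnb1 at 0 reads in all libraries. Of the 2 tested, Cxcl1, a neutrophil-attracting chemokine, stood at 8.75, 9.11 and 3.51 FPKM in HKO 1, HKO 2 and HKO 3, against 3.26, 4.38 and 2.67 FPKM in the Flox libraries. HKO 3 fell within the Flox range, and Cxcl1 did not pass (adjusted p = 0.651 in limma). Il1b stood at 1.77 ± 0.979 FPKM in HKO and 1.60 ± 0.106 in Flox. Neither passed over all genes, and 1 of them, Cxcl1, had an unadjusted p under 0.05 in limma (7.62% of all genes tested). Limma's voom likewise called 0 genes in these lists.

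**Figure D3:**
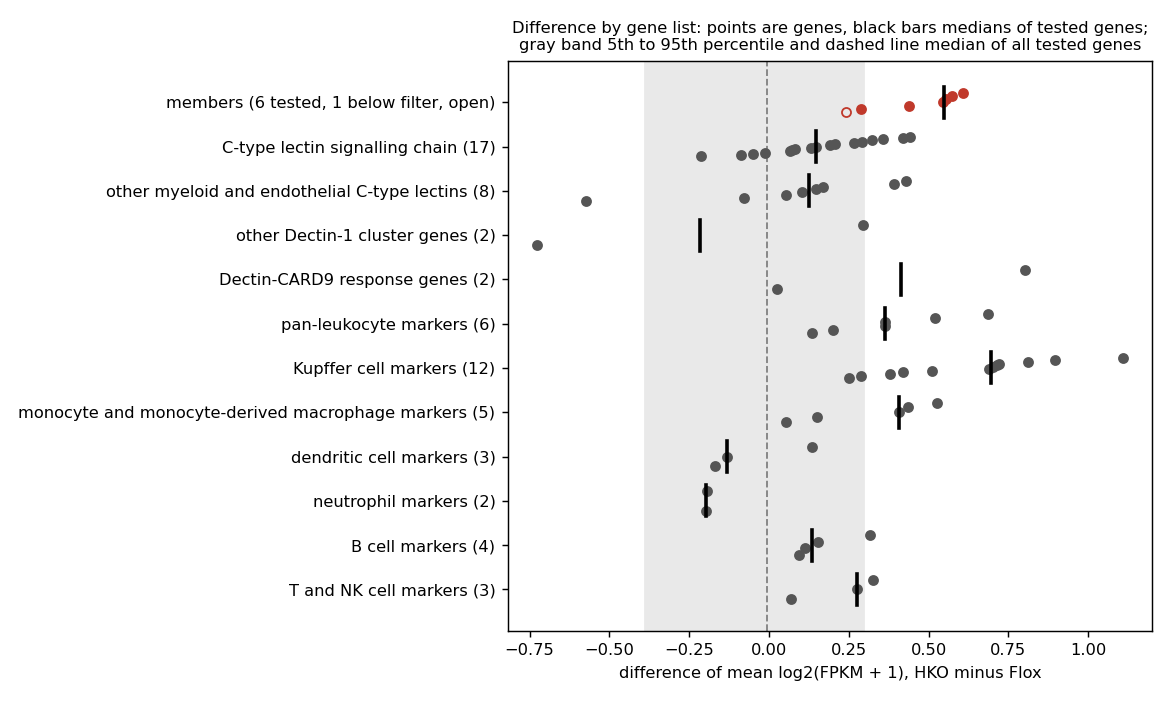
Difference of mean log2(FPKM + 1), HKO minus Flox, for each gene (points) of the members and of the lists named in the text, with the number tested in brackets and list medians as black bars. The median is 0.55 for the 6 members tested, 0.69 for Kupffer cell markers, 0.41 for monocyte and macrophage markers and for the 2 response genes, and below 0 for dendritic cell and neutrophil markers (-0.13 and -0.20). The gray band spans the 5th to 95th percentile of single genes (-0.39 to 0.30).

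Markers of the cells that carry these receptors stood higher in HKO in part. All 6 pan-leukocyte markers had a higher mean in HKO (median difference 0.36), with a summed level of 20.99 to 28.6 FPKM in HKO libraries and 11.7 to 21.9 FPKM in Flox libraries. Among these Laptm5 stood at 5.98 ± 0.746 FPKM in HKO and 3.40 ± 1.07 in Flox, Cd52 at 5.39 ± 2.12 and 3.92 ± 1.35, and Cd53 at 5.13 ± 0.204 and 3.92 ± 1.46. All 12 Kupffer cell markers had a higher mean (median 0.69), with sums of 199 to 342 FPKM in HKO and 141 to 241.2 FPKM in Flox. The highest were Cd5l (63.9 ± 21.1 and 38.95 ± 16.1 FPKM), C1qa (50.6 ± 17.8 and 40.5 ± 9.61) and C1qb (45.97 ± 7.74 and 35.97 ± 11.5), each with HKO first and with overlapping groups. In 4 of the 12 every HKO library lay above every Flox library. These were Vsig4, Cd163, Csf1r and Adgre1, with means 1.8, 2.2, 1.7 and 2.1 times as high in HKO. Such separation was seen in 2 of the 6 pan-leukocyte markers and in 6.06% of all genes tested. Of 11 monocyte and macrophage markers 5 were tested and all 5 had a higher mean log2 value (median 0.41), although Plac8 had a lower mean FPKM (4.92 in HKO and 5.68 in Flox), with sums of 204 to 233 FPKM in HKO and 168 to 212 FPKM in Flox. Most of that sum was Fn1 (147 ± 7.50 FPKM in HKO and 133 ± 11 in Flox), which hepatocytes also make. Lyz2 stood at 52.1 ± 8.36 and 38.95 ± 5.56 FPKM, and Cd68 at 6.62 ± 0.996 and 4.52 ± 2.14.

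The 6 monocyte and macrophage markers below the filter went in both directions. Ly6c2 had 61 reads in HKO and 88 in Flox, of which 61 were in Flox 3, and Ccr2 had 105 and 111. Mean FPKM, which allows for library size, was higher in HKO for Cx3cr1 (0.263 in HKO and 0.232 in Flox, from 63 and 49 reads). It was also higher for Ms4a7 (0.149 and 0.0784, from 36 and 17 reads) and Chil3 (0.193 and 0.0947, from 17 and 7 reads). Groups overlapped in each, and Itgam was nearly level (0.0869 and 0.0841 FPKM, from 23 and 20 reads). Of 8 dendritic cell markers 3 were tested, 1 with a higher mean (median -0.13), at sums of 2.66 to 3.87 FPKM in HKO and 2.59 to 3.65 FPKM in Flox. Irf8 stood at 1.07 ± 0.265 and 0.873 ± 0.105 FPKM, Batf3 at 0.669 ± 0.446 and 0.8 ± 0.28, and Zbtb46 at 0.446 ± 0.088 and 0.629 ± 0.161. Of 8 neutrophil markers 2 were tested and both had a lower mean (median -0.20), at sums of 2.59 to 4.16 FPKM in HKO and 2.42 to 5.99 FPKM in Flox, and Ly6g had 0 reads in every library. S100a9 stood at 1.38 ± 0.496 FPKM in HKO and 1.88 ± 1.40 in Flox. All 4 tested of 6 B cell markers (median 0.13; sums of 5.05 to 9.32 FPKM in HKO and 4.995 to 7.92 in Flox) and all 3 tested of 8 T and NK cell markers (median 0.27; sums of 3.67 to 4.44 FPKM in HKO and 2.24 to 3.46 in Flox) had a higher mean. Endothelial markers (7 of 7 tested, 6 with a higher mean, median 0.14) summed to 24.5 to 32.9 FPKM in HKO and 21.6 to 28.3 in Flox. Stellate cell, cholangiocyte and hepatocyte markers had medians of -0.03, 0.06 and -0.14. In limma 0 markers of these lists passed over all genes. At an unadjusted p under 0.05 there were 2 pan-leukocyte, 4 Kupffer, 2 monocyte and macrophage, 1 B cell and 1 hepatocyte marker, and 7.62% of all genes tested were at that level. The part of these cells in the members' difference was not tested.

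**Figure D4:**
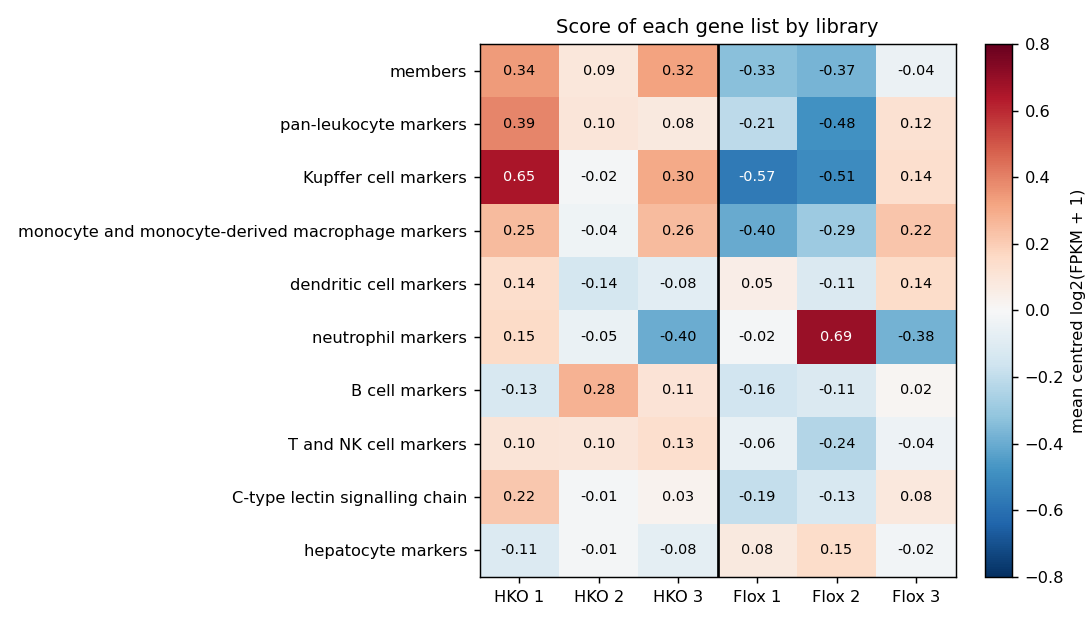
Score of each list in each library, the mean over its tested genes of log2(FPKM + 1) centred on the gene's mean, with HKO libraries on the left and Flox libraries on the right of the black line. Members score 0.34, 0.09 and 0.32 in HKO and -0.33, -0.37 and -0.04 in Flox, and Flox 3 lies above HKO 2 for Kupffer cell and pan-leukocyte markers.

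Set against summed cell markers, the members' groups overlapped for 2 lists and did not for the third. Because this contrast chose the set, these ratios are a description only. The summed FPKM of the 7 genes came to 46.1%, 44.9% and 58.95% of the pan-leukocyte sum in HKO 1, HKO 2 and HKO 3, against 35.2%, 45.9% and 36.8% in Flox 1, Flox 2 and Flox 3. Flox 2, with the lowest pan-leukocyte sum, lay above HKO 2 in this ratio. Relative to the Kupffer cell sum the members came to 3.86%, 4.85% and 4.93% in the HKO libraries, against 3.97%, 3.49% and 3.35% in the Flox libraries. Here Flox 1 lay above HKO 1, the library with the highest Kupffer cell sum. Relative to the monocyte and macrophage sum, most of it Fn1, they came to 6.33%, 4.74% and 5.31% in the HKO libraries, against 3.34%, 3.07% and 3.81% in the Flox libraries. In this ratio all HKO libraries lay above all Flox libraries, as in the members' sum itself (9.65 to 13.2 against 5.37 to 8.07 FPKM). Pan-leukocyte scores ordered the Flox libraries as the members did, with Flox 3 highest (0.12) and Flox 2 lowest (-0.48). Among HKO libraries HKO 1 led both (0.39 for pan-leukocyte markers), while HKO 3 (0.08) was level with HKO 2 (0.10) for pan-leukocyte markers and well above it for the members. Kupffer cell scores ordered the HKO libraries as the members did (0.65, -0.02 and 0.30 in HKO 1, HKO 2 and HKO 3). They put Flox 1 (-0.57) below Flox 2 (-0.51), unlike the members. Monocyte and macrophage scores also put HKO 3 (0.26) above HKO 2 (-0.04).

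The genes with a pattern most like the members' mean profile were found over the 6 libraries by the root mean square difference between standardized log2 profiles. Of 10067 genes with a mean of at least 1 FPKM that passed the filter, the nearest were Nop56 (0.0965), Sf3a1 (0.144), Extl3 (0.173), Inpp5a (0.194), Rapgef1 (0.206), Sirpa (0.213), Slc35f5 (0.218) and Mlst8 (0.219). The median gene lay at 1.47. The members that passed the filter, from which the profile was made, lay between 0.285 (Clec4n) and 0.488 (Clec12a). Clec4n ranked only 22 among genes with a mean of at least 1 FPKM, so genes outside the set fitted the profile better. Sirpa, an inhibitory receptor of macrophages, stood at 4.82, 3.47 and 4.72 FPKM in HKO 1, HKO 2 and HKO 3, against 2.33, 2.55 and 3.54 FPKM in the Flox libraries, so HKO 2 lay just below Flox 3, as in Clec4n. Nop56, a ribosome assembly factor found in all cells, stood at 3.85, 3.33 and 3.70 FPKM in the HKO libraries, against 2.57, 2.60 and 3.15 FPKM in the Flox libraries.  None of the 8 passed in limma (adjusted p = 0.648 to 0.719).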

How the data were processed

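RNA-seq was made as 3 HKO and 3 Flox liver libraries with a NEBNext Ultra kit, per the labels' protocols. The authors deposited 1 table of FPKM per gene and library, with gene lengths in bases; replicates were not pooled. The submitters' processing notes give GRCm38 and mm10 as builds; aligner and counter: not given in the sources used here. Lengths equalled the union of GENCODE M21 exons for all 7 members. FPKM times length was a whole multiple of 1 step per library, which gave reads (100% of values above 0 within 0.02 of a whole number). For a gene of 1 kb, 14.9 to 18.5 reads make 1 FPKM. The library size behind the FPKM was not the count of assigned reads. It was 1.01 to 1.06 times that count in HKO libraries and 0.934 to 1.03 times in Flox libraries.

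Genes that reached 0.5 FPKM in 3 or more of the 6 libraries were tested on log2(FPKM + 1) in limma 3.58.1 (R 4.3.3, statmod 1.5.0; trend, robust, two-sided) with Benjamini-Hochberg adjustment and a threshold of 0.05. An exact permutation test of 3 against 3 libraries cannot go below 0.1. Differences are HKO minus Flox. Transcript copies were sought with blastn 2.17.0. Besides members and G3bp1, the text names up to 4 genes per pathway list by smallest p, near paralogs below the filter, up to 3 markers per blood cell list by level and the 8 genes most like the members. Fcer1g, Card9, Ly6g, the monocyte genes below the filter, Vsig4, Cd163, Csf1r, Adgre1 and the neighbouring genes lie outside that rule. They were chosen after their values were seen. The members and lists were chosen with earlier results of these data known. Alternatives tried were other pseudocounts, filters and scalings, voom, a replicate block and leaving out each library.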

Additional observations from a re-analysis of the deposited data

How the results depend on the processing

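Differences of the 6 members tested kept their sign under the alternatives that gave them a value; Clec4a2, below the filter, was in none, and a mean of at least 1 FPKM left out Clec4a1 and Clec12a. Their median over those tested, 0.55 on log2(FPKM + 1), was 0.46 to 0.61 with 1 library left out, 0.87 with a pseudocount of 0.1, 0.83 under TPM and 0.93 with voom on recovered reads; the smaller pseudocount and voom shrink low genes less. TPM moved the median of all genes to 0.15, and relative to it the members' median was 0.68. Scaled by assigned reads, the median was 0.05 for all genes and 0.60 for the members tested. Over all genes the count lower in HKO (1) was 0 with no filter, 0 with the replicate block, 3 with voom and 0 to 12 with 1 library left out; the count higher (0) was 0 to 1, the upper ends being those without HKO 1. Under TPM the median of the other myeloid and endothelial lectins was 0.30, of the signalling chain 0.33 and of the response genes 0.59. With 1 library left out the signalling chain ranged from 0.10 to 0.29, the other lectins from 0.08 (without Flox 3) to 0.19 and the 2 Dectin-1 cluster genes from -0.48 (without HKO 1) to -0.05 (without HKO 2). In each alternative 0 genes of the pathway lists passed. Same-numbered libraries of the groups correlated in their deviations at 0.021, 0.015 and 0.070 across genes. Different-numbered libraries correlated at -0.100 (HKO 3 and Flox 2) to 0.074 (HKO 1 and Flox 2). The numbers thus gave no clear pairing, but such small values cannot exclude it, and pairing by litter was not tested. Leaving out libraries for the counts of separated members was chosen after seeing the data. Depth limits Clec4a1, Clec4a2 and Clec4a3 most, at 10 to 54 reads per library.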

Other observations

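The table holds 33 genes whose symbol begins with Clec, of which 13 were tested and 6 had no read in any library. Of the 8 tested that are not members, 4 had a higher and 4 a lower mean log2 value in HKO (median difference 0.05 on the log2 scale), and 0 passed over all genes in limma. Clec2h, a relative of Clec2d, stood at 3.10 ± 1.72 FPKM in HKO and 8.14 ± 3.66 in Flox (log2 difference -1.16, adjusted p = 0.648 in limma), with overlapping groups. Clec16a, which despite its symbol is known as a regulator of endosomes and mitophagy, stood at 2.63 ± 0.327 FPKM in HKO and 1.92 ± 0.29 in Flox, with the lowest HKO library (2.250 FPKM) just above the highest Flox library (2.247 FPKM) (adjusted p = 0.648 in limma). Clec3b, which encodes tetranectin, lay below the filter, with 1 read in HKO and 17 in Flox. These genes were chosen after their values were seen.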
